A study of Drosophila melanogaster with 12 samples.

Results

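The genes examined here encode the subunits of the proteasome in Drosophila melanogaster. They were taken from the deposited tables by symbol: every gene row naming a symbol that begins with Prosalpha or Prosbeta, or with Rpn or Rpt followed by a digit. This gave 48 of 15904 rows, of which 25 belong to the core particle and 23 to the regulatory particle. The rows divide into 32 for the subunits themselves and 16 for gene copies, which carry the parent's name with an R or a T added. In 34 of the 48 rows the FPKM averaged over the 4 groups was 1 or more, against 9398 of 15904 rows in the whole table. FPKM counts fragments per kilobase of transcript, scaled for library size, so levels are on a per-length scale. Ratios of FPKM between groups nevertheless went with transcript length in these tables. Those 34 rows were 13 of the core particle and 21 of the regulatory particle, and 3 of them were copies.

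The proteasome is the protease that degrades proteins tagged with ubiquitin in the cytosol and nucleus. Its core particle is a barrel of stacked rings: the alpha subunits form the outer rings that gate the entry, and the beta subunits form the inner rings that hold the cutting sites. The regulatory particle caps the barrel, with a base whose ATPases unfold the substrate and a lid that removes the ubiquitin chain. All dividing and differentiating cells of the developing eye depend on it.

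RNA was measured in eye discs, the larval tissue that becomes the compound eye, in 12 samples in 4 groups of 3, from wandering larvae of the third instar. Each preparation used 30 pairs of discs. All 4 groups shared the w1118 background with sev-GAL4/UAS-GFP. To this the group called EP3037 added EP3037/UAS-RasV12, and its label says that hsrω is raised. The RNAi group added UAS-hsr{omega}RNAi/UAS-RasV12 and is labelled as having hsrω lowered. The Ras group added UAS-RasV12/dco2, and the control added dco2/+. RasV12 is a constitutively active Ras, hsrω is a long noncoding RNA, EP3037 is a transposon insertion that responds to GAL4, and dco2 is an allele of discs overgrown. The driver acts only in the sevenless-expressing cells of a disc while whole discs were sampled, so a change in a few cells is diluted, and fewer cells of a type and less RNA per cell cannot be told apart. dco2 is listed for the Ras and control groups and not for the EP3037 and RNAi groups. In any comparison between these pairs of groups, hsrω and dco2 therefore cannot be told apart. EP3037 and RNAi discs also differ from control discs in RasV12, which cannot be told apart from hsrω and dco2 there.

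The deposited value is 1 FPKM per row and group, pooled over samples, so no SD or n stands behind a level and the depth is unknown. Whether a group's samples were independent crosses is not stated, so the p-values cover the spread among these preparations only, which could be technical. The RNAi group entered the authors' Cuffdiff test as 4 inputs for its 3 samples. Not every input behind its pooled FPKM, or behind the p-values and q-values of its comparisons, was therefore a separate preparation. Hsromega itself was at 606 FPKM in EP3037 discs, 398 in RNAi discs, 389 in Ras discs and 543 in control discs, so the RNAi group is named by its label only. The higher value in EP3037 discs did not pass either. Its log2 change was 0.16 over control (Cuffdiff p = 0.84) and 0.64 over Ras (Cuffdiff p = 0.486 in the authors' deposited table). Eye disc markers, 10 of 10, were at 1 FPKM or more in every group. Summed levels of other tissues' markers differed between groups. The 8 haemocyte markers summed to 119 FPKM in EP3037 discs, 182 in RNAi discs, 83.4 in Ras discs and 96.6 in control discs. The 5 fat body markers summed to 20.0 FPKM in EP3037 discs, 8.02 in RNAi discs, 15.9 in Ras discs and 46.3 in control discs. The 5 ring gland markers summed to 54.98 FPKM in EP3037 discs, 58.8 in RNAi discs, 145 in Ras discs and 112 in control discs. The haemocyte sum was highest in RNAi discs and was mostly PPO1 and PPO2, at 81.3 and 64.7 FPKM there; 6 of the 8 markers followed it, while NimC1 and He were highest in control discs. Each of the 5 fat body markers was highest in control discs. The ring gland sum was highest in Ras discs, as were 4 of the 5 markers, while dib was highest in control discs. The 4 muscle markers summed to 75.9 FPKM in EP3037 discs, 51.8 in RNAi discs, 74.1 in Ras discs and 93.5 in control discs. No marker of these tissues was at 0 in any group, and their part in the proteasome values was not tested.

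The 31 subunit rows at 1 FPKM or more were all among the abundant transcripts of the disc, between 66.2 and 232 FPKM in every group. The median subunit stood at 119 FPKM in EP3037 discs, 101 in RNAi discs, 113 in Ras discs and 107 in control discs. The median of all rows at a mean of 1 FPKM or more was 13.3 FPKM in EP3037 discs, 13.7 in RNAi discs, 14.1 in Ras discs and 13.7 in control discs. Within a group the highest subunit exceeded the lowest by 3.27 times in EP3037 discs, 2.66 times in RNAi discs, 3.50 times in Ras discs and 2.87 times in control discs. The subunits of the complex thus lay within a narrow band of levels, several times the median row.

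The median level was higher for core particle genes than for regulatory particle genes in each group. The core median was 147 FPKM in EP3037 discs, 119.8 in RNAi discs, 143 in Ras discs and 129.9 in control discs over 13 genes. The median of the 18 regulatory subunits, copies left out, was 96.8 FPKM in EP3037 discs, 86.8 in RNAi discs, 91.8 in Ras discs and 87.4 in control discs. The ratio of the medians, core over regulatory, was 1.51 in EP3037 discs, 1.38 in RNAi discs, 1.55 in Ras discs and 1.49 in control discs. The particles overlapped in each group: 6 of 13 core genes in EP3037 discs, 3 in RNAi discs, 9 in Ras discs and 4 in control discs exceeded the highest regulatory subunit. The core genes also have the shorter transcripts, with a median longest transcript of 973 nt against 1534 nt for the 18 regulatory subunits, and the part of length in these levels was not tested.

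**Figure D1:**
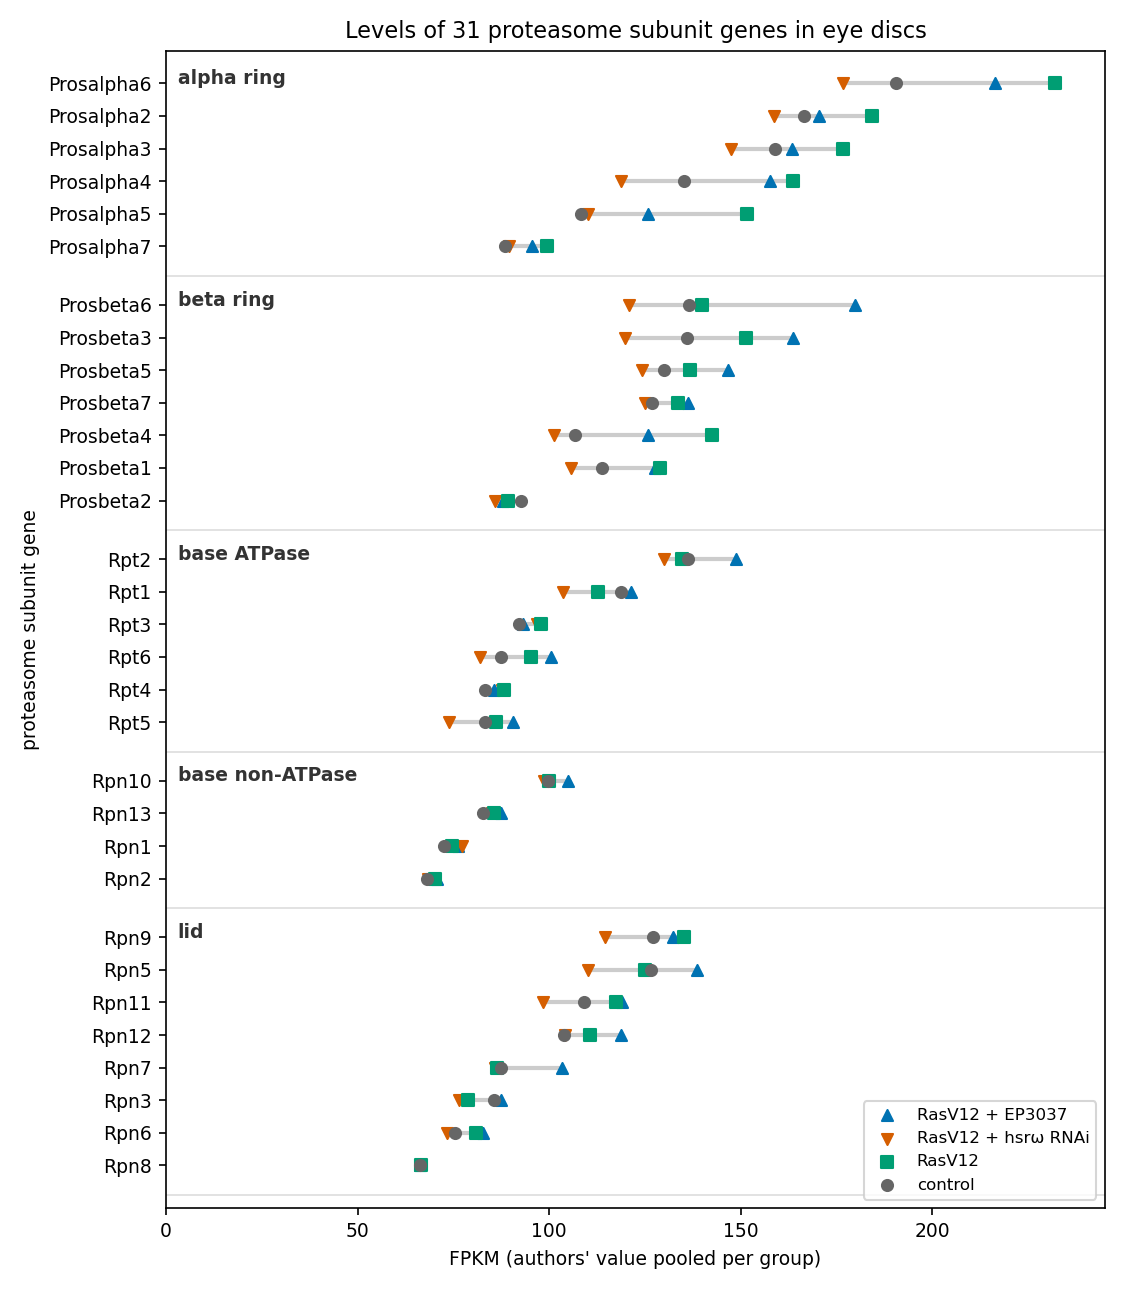
FPKM of the 31 proteasome subunit genes with a mean of 1 FPKM or more, copies left out, grouped by place in the complex (y axis, genes; x axis, FPKM on a linear scale from 0). Each symbol is the authors' pooled value for 1 group and the grey line spans the 4 groups; there are no error bars because the values are pooled. Prosalpha6 has the highest level and Rpn8 the lowest in every group, and most core genes have their lowest value in RNAi discs.

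The alpha ring was represented by 6 subunits at 1 FPKM or more. Prosalpha6 (chromosome 2L, 10221351 to 10222546, plus strand) ranked first of the 31 in each group, at 216 FPKM in EP3037 discs, 177 in RNAi discs, 232 in Ras discs and 190.5 in control discs. Prosalpha2 was at 171 FPKM in EP3037 discs, 159 in RNAi discs, 184 in Ras discs and 166 in control discs. Its row overlaps Aos1, which averaged 122 FPKM over the groups. The level of Prosalpha3 was 163 FPKM in EP3037 discs, 147 in RNAi discs, 177 in Ras discs and 159 in control discs. These 3 alpha genes held their high places in each group, with Prosalpha2 at rank 2 or 3 and Prosalpha3 between ranks 3 and 5. Prosalpha7 (2R, 9846636 to 9847836, minus strand) was the lowest alpha subunit, at 95.4 FPKM in EP3037 discs, 89.5 in RNAi discs, 99.5 in Ras discs and 88.4 in control discs. Prosalpha4 (X, 16276270 to 16277587, plus strand) was at 158 FPKM in EP3037 discs, 119 in RNAi discs, 164 in Ras discs and 135 in control discs. Prosalpha5 (2R, 17412767 to 17413769, plus strand) was at 126 FPKM in EP3037 discs, 110.1 in RNAi discs, 152 in Ras discs and 108 in control discs. Prosalpha5 thereby stood at rank 13 in EP3037 discs, 12 in RNAi discs, 5 in Ras discs and 15 in control discs, which was a wide shift of place among the alpha genes.

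For the seventh alpha subunit, Prosalpha1, no level could be read. Its row (2R, 7825289 to 7828678) and the neighbouring row over its near-identical copy Prosalpha1R (2R, 7829062 to 7831788) were both listed at 0 in all 4 groups. Every proteasome contains this subunit, so a 0 here can be a failed estimate, and reads shared between adjacent copies cannot be assigned from the tables.

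In the beta ring, all 7 subunits were at 1 FPKM or more. Prosbeta1, Prosbeta2 and Prosbeta5 encode the subunits with the protease sites, of caspase-like, trypsin-like and chymotrypsin-like preference. Prosbeta1 was at 128 FPKM in EP3037 discs, 106 in RNAi discs, 129 in Ras discs and 114 in control discs. Prosbeta2 (3L, 14999951 to 15014062, a row overlapping Reck) was at 87.8 FPKM in EP3037 discs, 85.9 in RNAi discs, 89.3 in Ras discs and 92.6 in control discs. Prosbeta5 was at 147 FPKM in EP3037 discs, 124 in RNAi discs, 137 in Ras discs and 129.9 in control discs. Prosbeta2 was thus the lowest beta subunit in each group and the core gene that varied least, with its highest group 1.08 times its lowest.

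The other beta subunits have no cutting site. Prosbeta6 (3L, 16609400 to 16610418, minus strand) had the highest mean of the ring and varied most of the 31 subunits, at 179.9 FPKM in EP3037 discs, 121 in RNAi discs, 139.9 in Ras discs and 136.5 in control discs, a range of 1.49 times. Prosbeta3 (3R, 9004017 to 9006226, minus strand, overlapping CG11980) was at 164 FPKM in EP3037 discs, 119.8 in RNAi discs, 151 in Ras discs and 136 in control discs. Prosbeta4 (2L, 16729777 to 16732133, minus strand, overlapping CG17996) was at 126 FPKM in EP3037 discs, 101 in RNAi discs, 143 in Ras discs and 107 in control discs. EP3037 discs were highest for Prosbeta3 and Prosbeta6, Ras discs for Prosbeta4, and RNAi discs were lowest for each of them. Prosbeta7 was at 136 FPKM in EP3037 discs, 125 in RNAi discs, 134 in Ras discs and 127 in control discs.

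The base of the regulatory particle holds the ATPases Rpt1 to Rpt6, which form a ring on the barrel. Rpt2 (3R, 23929243 to 23931558, minus strand, overlapping CG31142) was the highest of them, at 149 FPKM in EP3037 discs, 129.9 in RNAi discs, 135 in Ras discs and 136 in control discs. The row naming Rpt1 also names CG17985 and spans 33529 nt (2R, 7623242 to 7656770), so its values, 121 FPKM in EP3037 discs, 104 in RNAi discs, 113 in Ras discs and 119 in control discs, cannot be given to Rpt1 alone. The row of Rpt5 overlaps CG10219, which averaged 47.8 FPKM over the groups. Rpt5 was the lowest parent ATPase by mean, at 90.4 FPKM in EP3037 discs, 73.7 in RNAi discs, 85.97 in Ras discs and 83.1 in control discs. These 3 rows were lowest in RNAi discs. Rpt6 was at 101 FPKM in EP3037 discs, 82.0 in RNAi discs, 95.3 in Ras discs and 87.4 in control discs. Rpt3 was at 93.1 FPKM in EP3037 discs, 96.8 in RNAi discs, 97.9 in Ras discs and 92.2 in control discs. For Rpt4 the values were 85.7 FPKM in EP3037 discs, 87.7 in RNAi discs, 88.2 in Ras discs and 83.3 in control discs. Both Rpt3 and Rpt4 stayed within 1.06 times between their highest and lowest groups.

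Rpn1 and Rpn2 are the scaffold subunits of the base, and Rpn10 and Rpn13 are its ubiquitin receptors. Rpn10 (3L, 21537000 to 21538582, plus strand) was the highest of these, at 105 FPKM in EP3037 discs, 98.6 in RNAi discs, 99.96 in Ras discs and 99.6 in control discs. Rpn13 was at 87.4 FPKM in EP3037 discs, 85.0 in RNAi discs, 85.6 in Ras discs and 82.7 in control discs. Both receptors were highest in EP3037 discs by a few FPKM. Rpn1 was at 76.1 FPKM in EP3037 discs, 77.2 in RNAi discs, 74.5 in Ras discs and 72.6 in control discs. Rpn2 (3R, 29153524 to 29157255, plus strand) was at 70.7 FPKM in EP3037 discs, 68.3 in RNAi discs, 70.3 in Ras discs and 68.0 in control discs. Across these 4 genes the highest group was at most 1.06 times the lowest, the narrowest range of the classes of the complex.

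The lid contains Rpn11, the enzyme that cleaves the ubiquitin chain from the substrate, its partner Rpn8 and the scaffold subunits Rpn3, Rpn5, Rpn6, Rpn7, Rpn9 and Rpn12. Rpn11 was at 119 FPKM in EP3037 discs, 98.2 in RNAi discs, 117 in Ras discs and 109 in control discs. Rpn8 (2R, 24392129 to 24404527, a row overlapping slik) had the lowest level of the 31 subunits in each group, at 66.2 FPKM in EP3037 discs, 66.3 in RNAi discs, 66.4 in Ras discs and 66.4 in control discs. Its log2 change was 0.00 in all 6 comparisons, the least movement of any subunit. Rpn5 (3R, 5789493 to 5791569, plus strand) was at 138 FPKM in EP3037 discs, 110.2 in RNAi discs, 125 in Ras discs and 127 in control discs. Rpn7 (3R, 22448099 to 22462054, overlapping CG34376) was at 103 FPKM in EP3037 discs, 85.8 in RNAi discs, 86.5 in Ras discs and 87.5 in control discs. EP3037 discs were thus the highest for it. The Cuffdiff p in the authors' deposited tables was 0.268 over control, 0.25 over Ras and 0.195 over RNAi. Rpn3 was at 87.4 FPKM in EP3037 discs, 76.4 in RNAi discs, 78.7 in Ras discs and 85.6 in control discs. Rpn6 was at 82.8 FPKM in EP3037 discs, 73.3 in RNAi discs, 81.0 in Ras discs and 75.4 in control discs. Rpn12 was at 119 FPKM in EP3037 discs, 104 in RNAi discs, 111 in Ras discs and 104 in control discs. EP3037 discs were again the highest for Rpn3, Rpn6 and Rpn12, by small margins. Rpn9 (3R, 23723331 to 23752834) had the highest mean of the lid, at 132 FPKM in EP3037 discs, 114 in RNAi discs, 135 in Ras discs and 127 in control discs. That row overlaps RNaseMRP:RNA, listed at 19066 FPKM in EP3037 discs, 18235 in RNAi discs, 27572 in Ras discs and 19499 in control discs, and reads of the overlap cannot be assigned from the tables.

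Across the 31 subunits, the group with the lowest value was most often RNAi, for 11 of 13 core and 11 of 18 regulatory genes. The highest value of a core gene was in EP3037 discs for 4 genes, in Ras discs for 8 and in control discs for 1. For the regulatory genes it was in EP3037 discs for 13 genes, in RNAi discs for 1 and in Ras discs for 4.

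The Ras and control groups were set against each other to see what activated Ras changes in the disc. A row was called when the deposited Cuffdiff q was at or under 0.05, and the q is adjusted over all rows tested in the 6 comparisons. Of 37 members tested, 1 was called, against 0.773% of all rows tested, 0.355% of them lower in Ras discs. It was the gene copy Prosbeta2R1, lower in Ras discs, and no parent subunit was called. At an unadjusted p of 0.05, 2 members were higher in Ras discs and 1 lower, where 4.63% of all rows passed, 3.37% higher and 1.26% lower. The subunit among them was Prosalpha5, whose log2 change was 0.49 (p = 0.0243, q = 0.568 in the authors' deposited table). Core genes had higher FPKM in Ras discs for 12 of 13, against 58.7% of all rows, with a median log2 change of 0.16; the exception was Prosbeta2 at -0.05. These counts, medians and extremes of change, here and for the other pairs, are over the 34 rows with a mean of 1 FPKM or more. The medians by ring, base or lid class leave the copies out. Among all rows with a mean of 50 FPKM or more, 64.5% were higher in Ras discs, with a median of 0.07. Other rows with a longest transcript above 500 and up to 1000 nt had a median of 0.15, and the core median became 0.05, with 11 of 13 genes above 0, when a smooth trend of log2 change with transcript length was subtracted. The regulatory median was 0.05 over 21 genes, the same as the 0.05 of all rows. The alpha ring had the largest class median, 0.22 over 6 genes, and the beta ring stood at 0.08 over 7. Prosbeta4 had a log2 change of 0.42 and did not pass (p = 0.0625 in the authors' deposited table). The 2 lowest changes were those of Rpn3 at -0.12 and the row of Rpt1 at -0.08.

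**Figure D2:**
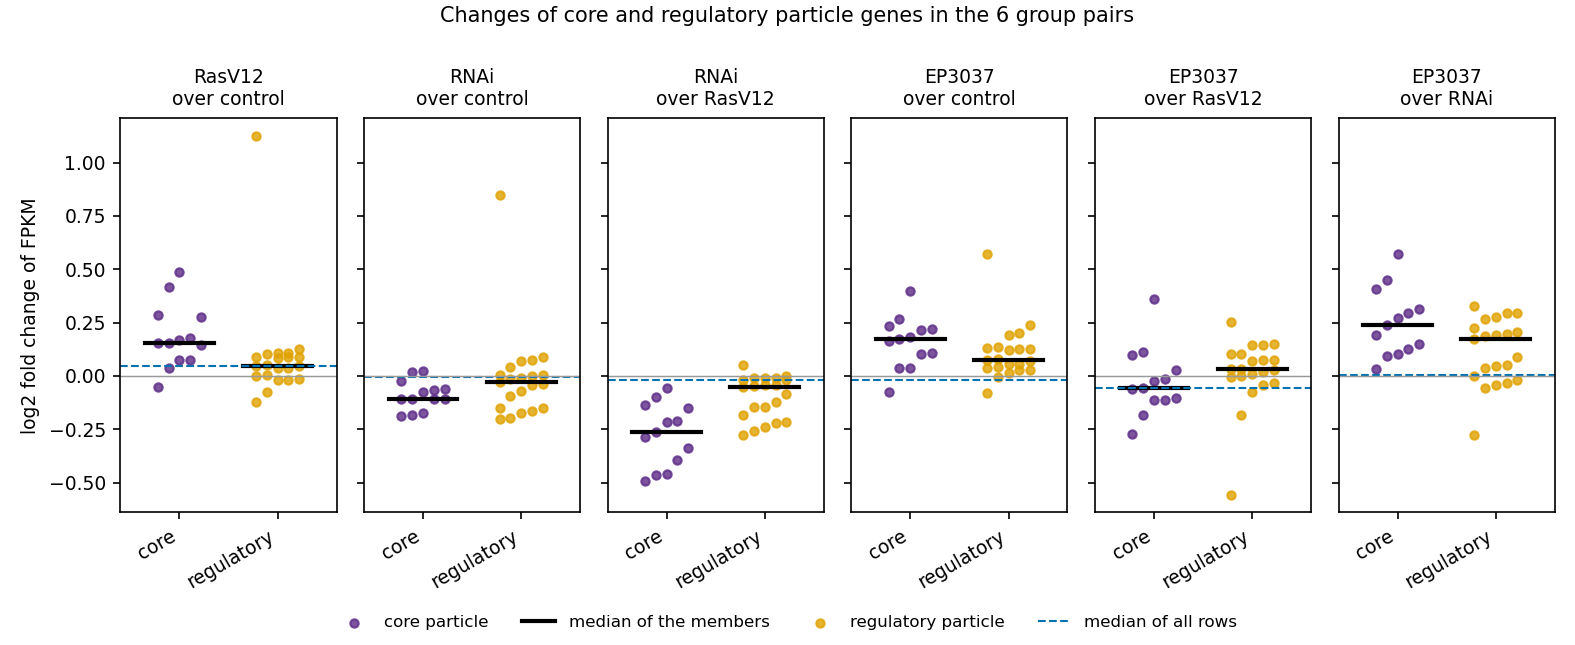
log2 fold change of FPKM (y axis) of core (purple) and regulatory (yellow) particle genes with a mean of 1 FPKM or more in the 6 group pairs, named as the group on top over the group below. Each point is 1 gene from pooled values, black bars are medians of the plotted genes and the dashed line is the median of all rows under the same filter; the highest regulatory point against the control is the copy Rpt6R. In RNAi over RasV12 the 13 core points lie between -0.49 and -0.06, and in EP3037 over RNAi between 0.03 and 0.57.

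RasV12 discs with the hsrω RNAi construct were next compared with RasV12 discs. No member of 37 tested was called, where 0.743% of all rows were. At an unadjusted p of 0.05, 4 members were lower in RNAi discs, all of the core particle, and none higher, where 5.2% of all rows passed and 3.85% were lower. Prosbeta4 had a log2 change of -0.49 (Cuffdiff p = 0.0176, q = 0.484 in the authors' deposited table). For Prosalpha4 it was -0.46 (p = 0.0206, q = 0.527 in the authors' deposited table), for Prosalpha5 -0.46 (p = 0.0237, q = 0.561 in that table) and for Prosalpha6 -0.39 (p = 0.0439, q = 0.757 in that table). The 13 core genes had FPKM lower in RNAi discs in 13 cases and the regulatory genes in 20 of 21, against 53.4% of all rows; among rows with a mean of 50 FPKM or more the share was 65.4%. The core median was -0.26, the regulatory median -0.05 and that of all rows -0.02, with the rows at 50 FPKM or more at -0.09. The difference of the core and regulatory medians, -0.21, was the widest of the 6 comparisons. By class the median was -0.33 in the alpha ring, -0.21 in the beta ring, -0.09 in the base ATPases, -0.01 in the other base subunits and -0.11 in the lid. The regulatory gene that was higher in RNAi discs was Rpn1, at 0.05.

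Transcript length went with this difference. The longest annotated transcripts of the 13 core genes were 815 to 1215 nt with a median of 973 nt, against a median of 1495 nt for the 21 regulatory genes and 1856 nt for all rows. In RNAi over Ras, rows other than the members had a median log2 change of -0.23 where their longest transcript was above 500 and up to 1000 nt, and 74.3% of them were lower. The median was -0.13 above 1000 and up to 1500 nt, -0.04 above 1500 and up to 2000 nt and 0.06 above 3000 and up to 5000 nt. The 8 core genes of up to 1000 nt had a median of -0.27, and Rpn12, the regulatory gene of that length, had -0.09. The 5 core genes above 1000 nt had a median of -0.14, and the 9 regulatory genes above 1000 and up to 1500 nt had -0.02. When a smooth trend of log2 change with length over all rows was subtracted, the core median became -0.06 with 9 of 13 genes below 0, the regulatory median -0.01 with 11 of 21 below 0, and the difference of these medians -0.05.

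**Figure D3:**
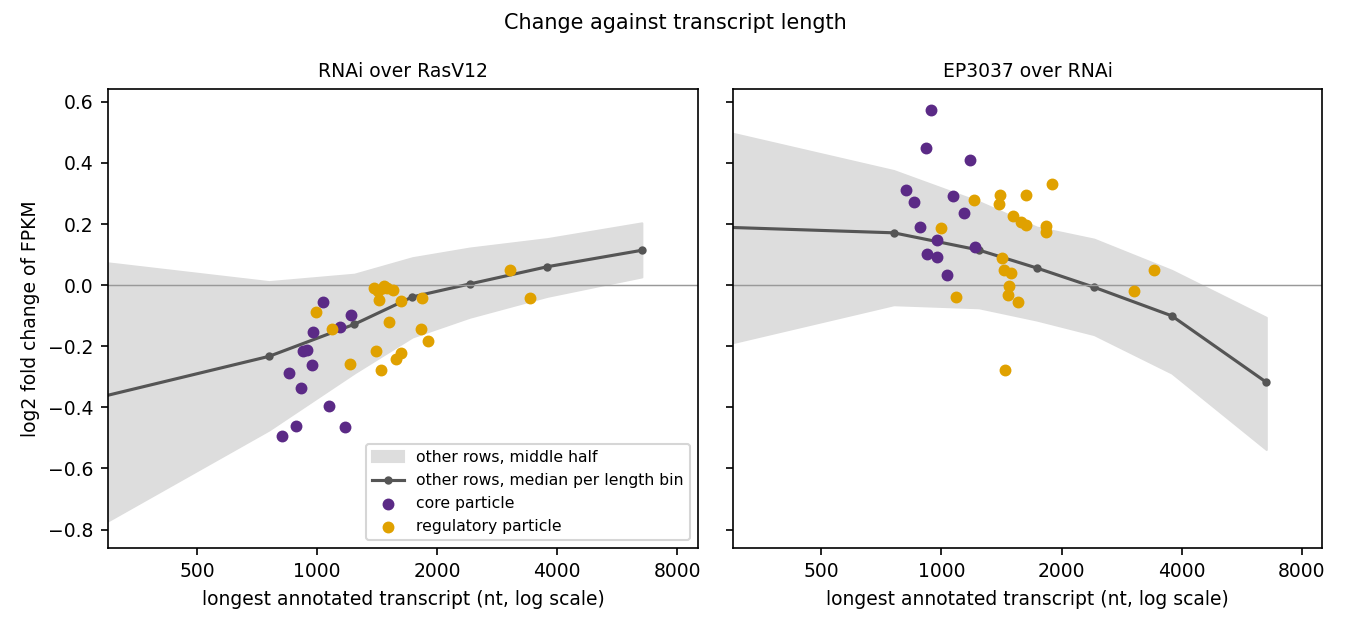
log2 fold change of FPKM (y axis) against the longest annotated transcript (x axis, nt, log scale) for RNAi over RasV12 and EP3037 over RNAi. Points are core (purple) and regulatory (yellow) genes with a mean of 1 FPKM or more, the dark line joins medians of the other rows per length bin, placed at the bin's median length, and the grey band spans their quartiles. The core genes lie at 815 to 1215 nt, and the other rows of the bins up to 1000 and up to 1500 nt have medians of -0.23 and -0.13 in RNAi over RasV12.

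RasV12 discs with EP3037, set against RasV12 discs, gave no call among 37 members tested, where 0.786% of all rows were called, and no member at an unadjusted p of 0.05, where 5.89% of all rows passed. Core genes were lower in EP3037 discs for 9 of 13, against 59.5% of all rows, with a median log2 change of -0.05, and the median became 0.00 when the changes were centred on the median of all rows. The core direction turned when the length trend was subtracted, to a median of 0.03 with 7 of 13 genes higher in EP3037 discs. Regulatory genes were higher in EP3037 discs for 15 of 21, against 40.5% of all rows, with a median of 0.03 where that of all rows was -0.06. Of rows with a mean of 50 FPKM or more, 62.1% were lower and 37.9% higher in EP3037 discs, with a median of -0.07. The alpha ring was at or below -0.05 for each of its 6 genes, with a median of -0.11, and the beta ring median was 0.03. Prosbeta6 had the highest log2 change, 0.36 (p = 0.0752 in the authors' deposited table), followed by Rpn7 at 0.26. The lowest were those of the copy Rpt6R at -0.56 and of Prosalpha5 at -0.27. The core and regulatory medians differed by -0.08.

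EP3037 and RNAi discs both express RasV12 and both lack dco2 in their labels, and differ in the labelled direction of hsrω. No member of 37 tested was called, where 1.74% of all rows were. At an unadjusted p of 0.05, 3 members were higher in EP3037 discs, all of the core particle, and none lower, where 9.43% of all rows passed and 3.07% were higher. Prosbeta6 had the lowest p of any subunit in the 6 comparisons, with a log2 change of 0.57 (p = 0.00245, q = 0.146 in the authors' deposited table). Prosbeta3 had a log2 change of 0.45 (p = 0.0394, q = 0.725 in the authors' deposited table) and Prosalpha4 of 0.41 (p = 0.0338, q = 0.674 in the authors' deposited table). Core genes were higher in EP3037 discs for 13 of 13 and regulatory genes for 15 of 21, against 50.8% of all rows and 60.2% of those with a mean of 50 FPKM or more. The core median was 0.24, the regulatory median 0.18, that of all rows 0.01 and that of rows at 50 FPKM or more 0.08. After the length trend was subtracted the medians were 0.12 and 0.13, and 10 of 13 core and 15 of 21 regulatory genes were above 0. Among the 10 regulatory genes whose rows overlapped no other row, the median was 0.07. The lowest changes were those of Rpt6R at -0.28 and Rpt3 at -0.06.

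Against the control, the EP3037 group had 1 of 37 members called, again Prosbeta2R1, where 0.643% of all rows were called and 0.39% called lower. Unadjusted, at a p of 0.05, it had Prosbeta6 higher, with a log2 change of 0.40 (p = 0.0491, q = 0.796 in the authors' deposited table). Prosbeta2R1 was the member lower at that p, where 3.52% of all rows passed, 1.82% higher and 1.7% lower. Core genes were higher in EP3037 discs for 12 of 13 and regulatory genes for 19 of 21, against 46.6% of all rows, with medians of 0.17 and 0.07 where that of all rows was -0.02. Of rows with a mean of 50 FPKM or more, 56.0% were higher, with a median of 0.03. The length trend was nearly flat for this pair, and the medians after its subtraction were 0.16 and 0.10. Each of the classes had a median above 0, from 0.07 in the base subunits without ATPase activity to 0.17 in the beta ring. The 2 lowest changes were those of the copy Rpn13R at -0.08 and Prosbeta2 at -0.08.

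The RNAi group had none of 38 members called against the control and none at an unadjusted p of 0.05, where 1.72% and 8.74% of all rows passed. Core genes were lower in RNAi discs for 11 of 13, against 51.1% of all rows and 59.6% of those with a mean of 50 FPKM or more. The core median log2 change was -0.11, and it turned to 0.01 when the length trend was subtracted. The regulatory median was -0.03, that of all rows -0.01 and that of rows at 50 FPKM or more -0.06. Rpn5 at -0.20 and the row of Rpt1 at -0.20 were the lowest, and Rpt6R at 0.85 and Rpn1 at 0.09 the highest.

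These comparisons share groups, so they are not separate evidence for a pattern: the low RNAi values enter 3 of the 6. The tests were also coarse for changes of the size seen. Among all rows with a mean between 66.3 and 204 FPKM, the range of the 31 subunits, the smallest change that was called had a log2 size of 0.76 in Ras over control, 0.66 in RNAi over control, 0.73 in RNAi over Ras, 0.75 in EP3037 over control, 1.13 in EP3037 over Ras and 0.68 in EP3037 over RNAi. The largest change of any of the 31 subunits, 0.57, was below each of these, so a p or q that missed the threshold does not show that the levels were equal.

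The called copy was Prosbeta2R1 (X, 5808954 to 5810158, plus strand, protein-coding, overlapping no other row), a copy of the beta subunit gene Prosbeta2. It was listed at 0 FPKM in EP3037 discs, at 0.0174 in RNAi discs, at 0 in Ras discs and at 1.53 in control discs. In the authors' deposited tables, Cuffdiff gave it p = 5e-05 and q = 0.00789, both in EP3037 over control and in Ras over control. These are the smallest values those tables hold, and other rows share them, among them Ras85D in EP3037 over control. For RNAi over control the deposited p was 0.0911 in the authors' deposited table, and the other 3 pairs were not tested. Because 1 pooled value stands for the control, how many control samples carried the transcript cannot be seen. Its mean over the groups, 0.387 FPKM, was the highest of the members below the filter, and Rpt6R, at 1.25 FPKM, was the lowest above it.

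The other copies were also low. Copies of proteasome genes in the fly are known chiefly as testis-specific isoforms. Of the 16, 12 were under 1 FPKM in every group, and the 3 at a mean of 1 FPKM or more included rows that could hold other transcripts. The row with Rpt3R (3R, 9747875 to 9759313) also names CG16908 and was at 9.65 FPKM in EP3037 discs, 9.34 in RNAi discs, 9.65 in Ras discs and 9.39 in control discs, where Rpt3 averaged 95.0 over the groups. The row of Rpn13R (X, 5085759 to 5254864) spans 169106 nt and overlaps rg, and was at 2.61 FPKM in EP3037 discs, 2.69 in RNAi discs, 2.97 in Ras discs and 2.76 in control discs. Rpt6R (3R, 30582198 to 30583697, minus strand, overlapping no other row) was at 1.14 FPKM in EP3037 discs, 1.39 in RNAi discs, 1.68 in Ras discs and 0.771 in control discs. Of the 34 rows with a mean of 1 FPKM or more, Rpt6R had the largest log2 change in Ras over control, 1.13 (p = 0.0442, q = 0.759 in the authors' deposited table), and was at most 1.68 FPKM where its parent Rpt6 averaged 91.3.

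Below the filter, Prosbeta2R2 was at 0.567 FPKM in EP3037 discs, 0.482 in RNAi discs, 0.198 in Ras discs and 0.254 in control discs. Rpn12R was at 0.433 FPKM in EP3037 discs, 0.481 in RNAi discs, 0.433 in Ras discs and 0.133 in control discs. The row of Rpn12R spans 50283 nt and overlaps 11 other rows, so it could hold other transcripts. Rpt4R was at 0.339 FPKM in EP3037 discs, 0.370 in RNAi discs, 0.412 in Ras discs and 0.332 in control discs. None of these 3 copies was called in any comparison, and their parents averaged 88.9, 109 and 86.2 FPKM over the groups. Prosbeta2R2 in Ras over control and Rpt4R in EP3037 over control were not tested by Cuffdiff. Prosalpha4T1, in a row that spans 16532 nt and overlaps 3 other rows, was at 0.0739 FPKM in EP3037 discs and 0.0618 in RNAi discs. In Ras discs it was at 0.349 FPKM and in control discs at 0.0282. Prosalpha4T2 was at 0.128 FPKM in EP3037 discs, 0.104 in RNAi discs, 0.0756 in Ras discs and 0.0826 in control discs. Prosbeta5R2 was at 0.0660 FPKM in EP3037 discs, 0.0788 in RNAi discs, 0.0374 in Ras discs and 0.243 in control discs. These lower copies were not tested by Cuffdiff in any of the 6 pairs, and their parents Prosalpha4 and Prosbeta5 averaged 144 and 134 FPKM. The row naming Prosbeta4R2 and Or23a was at 0.0291 FPKM in EP3037 discs, 0.0774 in RNAi discs and 0.0213 in Ras discs, and was listed at 0 in control discs. Prosalpha6T was above 0 in control discs alone, at 0.0581 FPKM, Prosbeta4R1 in RNAi discs alone, at 0.0441 FPKM, and Prosalpha3T in EP3037 discs alone, at 0.0273 FPKM. Prosbeta5R1, with Prosalpha1R, was listed at 0 in all groups. Of 7 testis genes, 2 were at 1 FPKM or more in every group and 4 under 1 in every group. The higher genes included sa, at 2.62 FPKM in EP3037 discs, 3.36 in RNAi discs, 2.67 in Ras discs and 2.66 in control discs. With it stood bam, at 1.65 FPKM in EP3037 discs, 1.22 in RNAi discs, 1.11 in Ras discs and 1.04 in control discs. Among the lower testis genes, aly was at 0.0111 FPKM in EP3037 discs and listed at 0 in the other groups. The level of can was 0.00647 FPKM in EP3037 discs, 0.00547 in RNAi discs and 0.00793 in Ras discs, and it was listed at 0 in control discs.

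**Figure D4:**
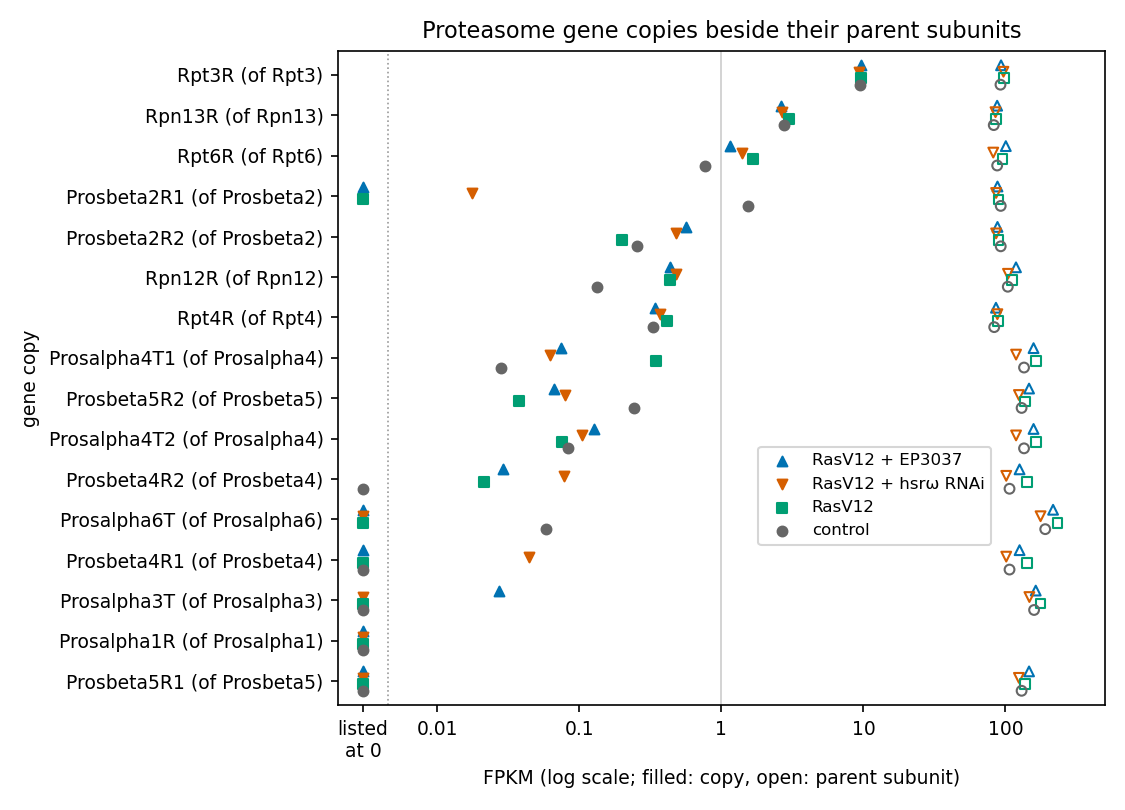
FPKM of the 16 gene copies (filled symbols) and of their parent subunits (open symbols) in the 4 groups, on a log scale with values listed at 0 drawn left of the dotted line; the vertical line marks 1 FPKM. Each symbol is 1 pooled value with no error bar. Apart from Prosalpha1R, whose parent row was also listed at 0, each copy lies below its parent in each group, and Prosbeta2R1 is at 1.53 FPKM in control discs and at 0 or 0.0174 in the other groups.

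The list searched for proteasome partners held 43 names, of which 23 matched a row. The names included older symbols of the subunits and second names of the same partners, so an unmatched name is not a missing partner. Each of the 23 was tested in the 6 comparisons with none called by Cuffdiff at a q of 0.05. At an unadjusted p of 0.05, 3 of the 23 were lower in RNAi over control, where 3.01% of all rows were, and 3 were lower in RNAi over Ras, where 3.85% of all rows were. In EP3037 over RNAi 3 were higher and 1 lower, where 3.07% and 6.37% of all rows were, and the other 3 comparisons had 0. The most abundant were both fusions of ubiquitin with a ribosomal protein: the row of RpS27A, which also names Ip259, was at 3386 FPKM in EP3037 discs, 2803 in RNAi discs, 3778 in Ras discs and 3335 in control discs. RpL40 was at 598 FPKM in EP3037 discs, 666 in RNAi discs, 684 in Ras discs and 767 in control discs. The polyubiquitin genes were lower, with Ubi-p5E at 125 FPKM in EP3037 discs, 109 in RNAi discs, 113 in Ras discs and 112 in control discs. Ubi-p63E was at 86.8 FPKM in EP3037 discs, 69.4 in RNAi discs, 73.2 in Ras discs and 73.1 in control discs. TER94, the segregase that extracts ubiquitinated proteins, was at 185 FPKM in EP3037 discs, 177 in RNAi discs, 177 in Ras discs and 170 in control discs. REG, a core activator that does not use ATP, was at 144 FPKM in EP3037 discs, 123 in RNAi discs, 139 in Ras discs and 129.9 in control discs.

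Sem1, the small peptide of the lid, was at 207 FPKM in EP3037 discs, 156 in RNAi discs, 251 in Ras discs and 193 in control discs. Its log2 change in RNAi over Ras was -0.69 (p = 0.0023, q = 0.139 in the authors' deposited table), larger in size than that of any subunit counted above, and its longest transcript is 427 nt. Also past an unadjusted p of 0.05 in that comparison were maf-S, partner of the transcription factor encoded by cnc, lower in RNAi discs at -0.77 (p = 0.00115, q = 0.0865 in the authors' deposited table) and Uch-L5, a deubiquitinase of the base, lower at -0.49 (p = 0.0118, q = 0.385 in the authors' deposited table). The factor that drives proteasome genes under stress in flies, cnc, was at 30.2 FPKM in EP3037 discs, 33.1 in RNAi discs, 30.5 in Ras discs and 29.8 in control discs, and its inhibitor Keap1 at 9.54 FPKM in EP3037 discs, 9.50 in RNAi discs, 10.46 in Ras discs and 10.2 in control discs. Pomp, the assembly factor of the core, was at 91.6 FPKM in EP3037 discs, 87.6 in RNAi discs, 91.9 in Ras discs and 83.7 in control discs. The median log2 change of the 23 partners was -0.07 in RNAi over Ras and 0.12 in EP3037 over RNAi.

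The 31 subunits lie on each major chromosome arm, with 4 on the X (Prosalpha4, Rpt3, Rpt4 and Rpt6) and 27 on autosomes. The median log2 change was 0.11 on the X and 0.07 on autosomes in Ras over control, -0.01 and -0.07 in RNAi over control, and -0.12 and -0.14 in RNAi over Ras. It was 0.12 on both in EP3037 over control, 0.13 on the X and 0.19 on autosomes in EP3037 over RNAi, and -0.05 on the X and 0.03 on autosomes in EP3037 over Ras. The X and autosomal medians thus had opposite signs in EP3037 over Ras, and with 4 genes on the X the difference was not tested.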

How the data were processed

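Total RNA was sequenced from stranded, rRNA-depleted libraries as 50 nt read pairs, per the labels' protocols. Per the submitters' processing notes the tools were TopHat, Bowtie and Cufflinks with Cuffdiff 2.1.1, on dm6. Annotation, filters and strand setting were not given in the sources used here. Deposited by the authors were 6 tables, 1 per group pair, with 1 FPKM per row and group and a Cuffdiff p-value and q-value, per the file headers. The RNAi group entered Cuffdiff as 4 inputs for its 3 samples. Adjusting the 65927 deposited p-values together by Benjamini-Hochberg returned the authors' q to within 1.56e-05.

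Here log2 changes were computed from the deposited FPKM without a pseudocount over rows with a mean of 1 FPKM or more, with Python 3.11.15, pandas 2.3.3 and statsmodels 0.14.6 (lowess, fraction 0.3, for the length trend). Lengths and strands come from Ensembl release 115 (98.6% of rows had a length); starts are 1-based. The members, the partner and marker lists and the named genes (called members, class extremes, comparison extremes, copies) were chosen with earlier results of these data known. Alternatives changed the call rule, pseudocount, filter, scaling, length, summary and row choice. No sequences are printed.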

Additional observations from a re-analysis of the deposited data

How the results depend on the processing

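Under 5 other call rules, 24 of 30 counts of called members stayed within 1.5 times of that at a q of 0.05. Most of these 24 were 0 under both rules, because only Ras over control and EP3037 over control had a called member at that q. The share therefore says little about how stable the calls were. At an unadjusted p of 0.05 the counts were 3 in Ras over control, 4 in RNAi over Ras, 2 in EP3037 over control and 3 in EP3037 over RNAi. With the adjustment made within a comparison over rows at a mean of 1 FPKM or more, Prosbeta2R1 is not among the rows, and the count was 0 in Ras over control and 0 in EP3037 over control. Of the median log2 changes, 62 of 66 core values, 65 of 66 regulatory values and 65 of 66 core minus regulatory differences moved by less than 0.1, a margin wider than several of these medians. The sign changed in 4 core, 2 regulatory and 2 core minus regulatory values. For the core these were RNAi over control with the length trend subtracted, and EP3037 over Ras with that trend subtracted (0.029) or with centring on all rows (0.00085) or on rows at 10 FPKM or more (0.010). For the regulatory genes they were RNAi over control with the trend subtracted (0.0023) and over members overlapping no other row (0.0053). Core minus regulatory changed sign with the trend subtracted in RNAi over control (0.0099) and EP3037 over RNAi (-0.016). The moves of 0.1 or more came with the length trend subtracted, where the core median was 0.050 in Ras over control, 0.012 in RNAi over control, -0.060 in RNAi over Ras and 0.12 in EP3037 over RNAi, and core minus regulatory was -0.053 in RNAi over Ras. Over members overlapping no other row, an alternative chosen after seeing the data, the regulatory median was 0.070 in EP3037 over RNAi; the cause was not tested. No paired analysis was possible because the deposited values are pooled per group, and for the same reason no replicate could be left out. The depth is unknown.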
